A study of Mus musculus with 18 samples.

Results

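Knockdown of *Cpsf3* was set directly against knockdown of *Hnrnpul1* in reprogramming mouse embryonic fibroblasts (MEFs), without reference to the scrambled control. The comparison took 8 of the 18 RNA-seq libraries, 4 with shRNAs against *Cpsf3* (shCPSF3#1 and shCPSF3#2, replicates 1 and 2 of each) and 4 with shRNAs against *Hnrnpul1* (shUL1#1 and shUL1#2, replicates 1 and 2 of each). They were chosen by their labels alone. All 8 came from primary MEFs of male embryos that carry a doxycycline-inducible cassette of OCT4, KLF4, SOX2 and MYC, the factors that drive reprogramming, and the M2rtTA transactivator. The cells received a lentivirus with 1 shRNA and a GFP marker, were induced with doxycycline, were sorted for GFP at day 2, and were harvested at day 12. The sorted cells grew on irradiated feeder MEFs and were not sorted again, so that feeder RNA may be part of each library, and in such bulk samples fewer cells of a type and less RNA per cell cannot be told apart. One field of the labels puts the shUL1#2 libraries at day 0, whereas their titles put them at day 12, the day used here. The shSCR libraries (a non-targeting shRNA, day 12) and the NI libraries (uninfected MEFs, day 0) took no part in the tests, and their values are given beside some results for orientation.

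CPSF3, also called CPSF73, is the endonuclease that cuts pre-mRNAs at their 3′ ends, both at polyadenylation sites and at the ends of replication-dependent histone transcripts. hnRNP UL1 belongs to the heterogeneous nuclear ribonucleoproteins, which coat nascent transcripts, and it has been linked to RNA processing and to the response to DNA double-strand breaks. Since 3′ end formation and splicing take place on the same nascent transcripts, loss of either protein can alter both the amount and the form of a mature mRNA. Expression is given as scaled CPM, the reads of a gene relative to the library total (CPM) as scaled for each library by the authors. Splicing is given as percent spliced in (PSI), the percentage of transcripts of a gene that include an exon, keep an intron or use a given splice site.

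The 4 hairpins define the comparison, so they are shown in full as ordered, 5′ to 3′, with the 21 nt that match the target mRNA in capitals.
shCPSF3#1: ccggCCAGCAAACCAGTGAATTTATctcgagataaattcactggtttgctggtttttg
shCPSF3#2: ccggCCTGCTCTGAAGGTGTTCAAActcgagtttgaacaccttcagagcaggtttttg
shUL1#1: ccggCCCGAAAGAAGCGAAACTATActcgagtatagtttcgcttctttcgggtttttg
shUL1#2: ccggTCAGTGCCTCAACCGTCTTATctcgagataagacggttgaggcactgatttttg
In the GENCODE vM21 annotation of mm10, the target of shCPSF3#1 lies in the coding sequence of exon 10 of the 18 exons of *Cpsf3* (ENSMUSG00000054309, plus strand) at chr12:21302460-21302480, and that of shCPSF3#2 in exon 14 at chr12:21308936-21308956. Both shRNAs against *Hnrnpul1* (ENSMUSG00000040725, minus strand) match the coding sequence of exon 10 of its 15 exons, at chr7:25733027-25733047 for shUL1#1 and chr7:25733059-25733079 for shUL1#2, with 11 bases between them. The number of other genes with an exact match in their annotated transcripts was 0 for each of the 4 targets.

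Depth was even, with 98882289 to 105006758 reads on the 9435 listed genes in the 8 libraries and 228080511 to 247797362 reads over the splicing events. Of the variance of the log2 values, 67.3% lay on a first component along which replicate 1 was below replicate 2 for each shRNA (−46.5, −18, −15.8 and −9.74 against −6.70, 36.3, 32.7 and 27.8). Libraries of the same number deviated together across genes, with r from 0.675 to 0.949 between the shRNAs, and the replicate number was therefore kept as a block. The shCPSF3#1 libraries stood apart from the other 6, being the lowest of their replicate number on the first component and the highest on the second (15.5% of the variance). Nothing in the labels says that same-group libraries came from separate cultures or embryos, so that p values measure the spread between these libraries, which may be technical.

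The targeted genes were examined first. *Cpsf3* was expressed at 38.6 and 49.99 scaled CPM in shCPSF3#1 replicates 1 and 2, at 42.4 and 77.1 in shCPSF3#2, at 74.2 and 88.5 in shUL1#1, and at 79.5 and 88.2 in shUL1#2. Replicate 2 of shCPSF3#2 overlapped the shUL1 libraries, and the other 3 shCPSF3 libraries were below all of them. Within replicate 1 and within replicate 2, both shCPSF3 libraries were below both shUL1 libraries. The mean was 52.0 ± 17.4 against 82.6 ± 6.97 (SD, n = 4 libraries each), a log2 difference of −0.70 (standard error 0.15, *limma* unadjusted p = 0.00176 and adjusted p = 0.442 over 9435 genes), with an exact permutation p of 0.0571 (two-sided, 4 libraries against 4). *Hnrnpul1* was expressed at 118 and 131 scaled CPM in shCPSF3#1, at 132 and 166 in shCPSF3#2, at 55.7 and 85.8 in shUL1#1, and at 38.7 and 63.7 in shUL1#2. The 4 shCPSF3 libraries were above the 4 shUL1 libraries without overlap. Their means were 137 ± 20.6 and 61.0 ± 19.6 scaled CPM (SD, n = 4 each), a ratio of 2.25. The log2 difference was 1.20 (standard error 0.17, *limma* unadjusted p = 1.32e-04, adjusted p = 0.231), and the exact permutation p was 0.0286, the smallest that 4 libraries against 4 allow. The exact tests of both genes permuted the libraries freely, so that they leave out the pairing by replicate number. In the shSCR libraries the levels were 86.7 and 118 for *Cpsf3* and 156 and 185 for *Hnrnpul1*, so that each gene was lowest with its own shRNAs, and each was also somewhat below shSCR with the shRNAs against the other gene (80.8% of the shSCR mean for *Cpsf3* in shUL1 cells, 80.2% for *Hnrnpul1* in shCPSF3 cells). Whether these last differences exceed the spread was not tested here. Fitting every shRNA as a separate group brought the *limma* adjusted p to 0.0266 (*Cpsf3*) and 0.0135 (*Hnrnpul1*).

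**Figure D1:**
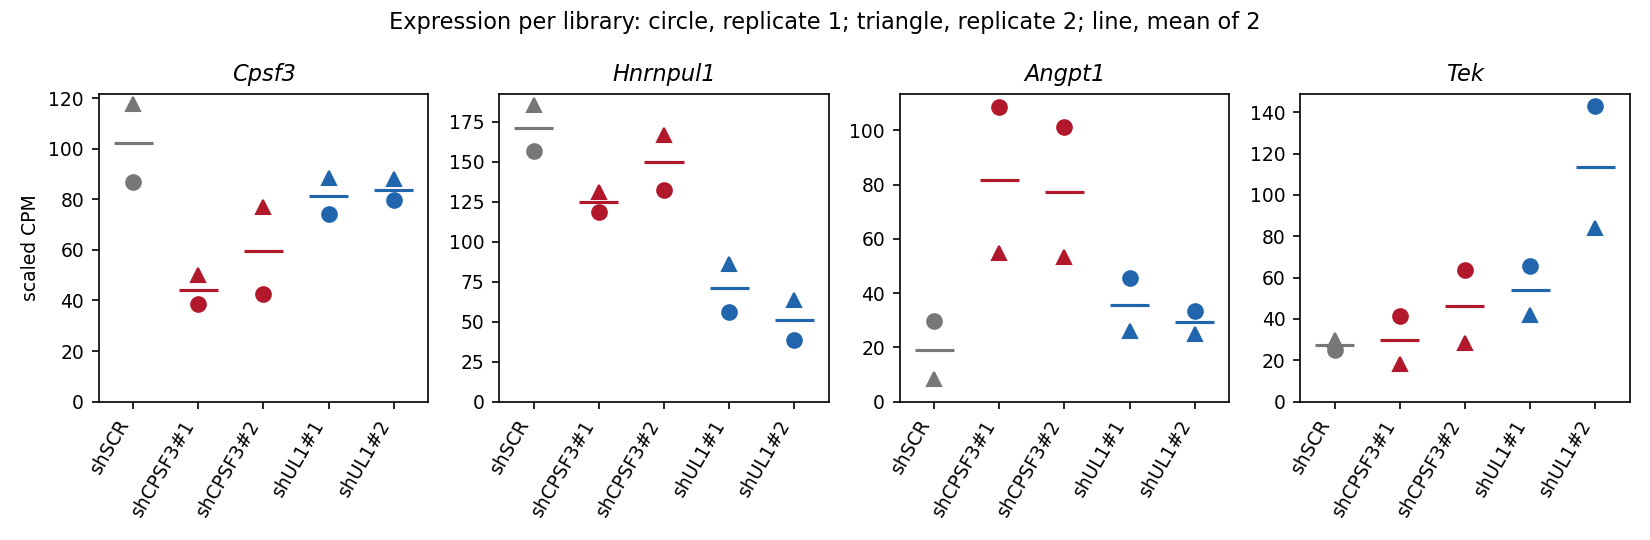
Scaled CPM of *Cpsf3*, *Hnrnpul1*, *Angpt1* and *Tek* in each library (vertical axes start at 0), with shSCR in grey, shCPSF3 in red, shUL1 in blue, circles for replicate 1, triangles for replicate 2 and a line at the mean of 2 libraries. *Cpsf3* is lowest in shCPSF3 cells with replicate 2 of shCPSF3#2 at 77.1, *Hnrnpul1* is lowest in shUL1 cells, and the shCPSF3 libraries of *Angpt1* lie between 53.4 and 109, above all shUL1 libraries.

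With both shRNAs of a gene treated as replicates of its knockdown and the replicate number as a block, 0 of 9435 genes (0.0%) had a *limma* adjusted p under 0.05. The lowest adjusted p was 0.0921, that of *Angpt1*. At an unadjusted p under 0.05 there were 1059 genes, 665 higher (7.05%) and 394 lower (4.18%) in shCPSF3 than in shUL1 cells. After scaling the libraries to equal sums, which moved the median difference of all genes from 0.010 to −0.053, the split turned to 362 higher and 602 lower, so that the balance of directions depends on the scaling. *limma-voom* on the reads that the values stand for also called 0 genes (964 at an unadjusted p under 0.05). The libraries of the knockdowns did not overlap in 296 genes, 211 higher (2.24%) and 85 lower (0.901%) in all 4 shCPSF3 libraries. Within replicate 1 and within replicate 2 taken separately, 785 genes (8.32%) were higher and 396 (4.20%) lower in both shCPSF3 libraries than in both shUL1 libraries.

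The distance between the knockdowns was larger with shCPSF3#1 than with shCPSF3#2. The median absolute difference per gene, on the log2(scaled CPM + 1) scale and between means of 2 libraries, was 0.270 between shCPSF3#1 and shUL1#1 and 0.272 between shCPSF3#1 and shUL1#2. It was only 0.0818 and 0.102 between shCPSF3#2 and the same shUL1 shRNAs, below the 0.110 between shUL1#1 and shUL1#2 and the 0.251 between the shRNAs against *Cpsf3*. In expression, shCPSF3#2 cells were thus nearer to either group of shUL1 cells than to shCPSF3#1 cells. When each shRNA formed its own group, with the replicate block, 1307 genes had an adjusted p under 0.05, 735 higher (7.79%) and 572 lower (6.06%) in the mean of the shRNAs against *Cpsf3*. In 1267 of the 1307, the difference from shUL1 was larger for shCPSF3#1, with a median absolute size of 0.70 against 0.16 for shCPSF3#2 (log2 scale), although 1065 had the same direction with both. The libraries of 138 of them did not overlap. Leaving shCPSF3#2 out gave 2993 genes, whereas leaving shCPSF3#1 out gave 0 (543 at an unadjusted p under 0.05). A test with shRNAs as own groups asks whether the mean of these particular shRNAs differs by more than their replicates, and cannot separate the knockdown from the shRNA.

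**Figure D2:**
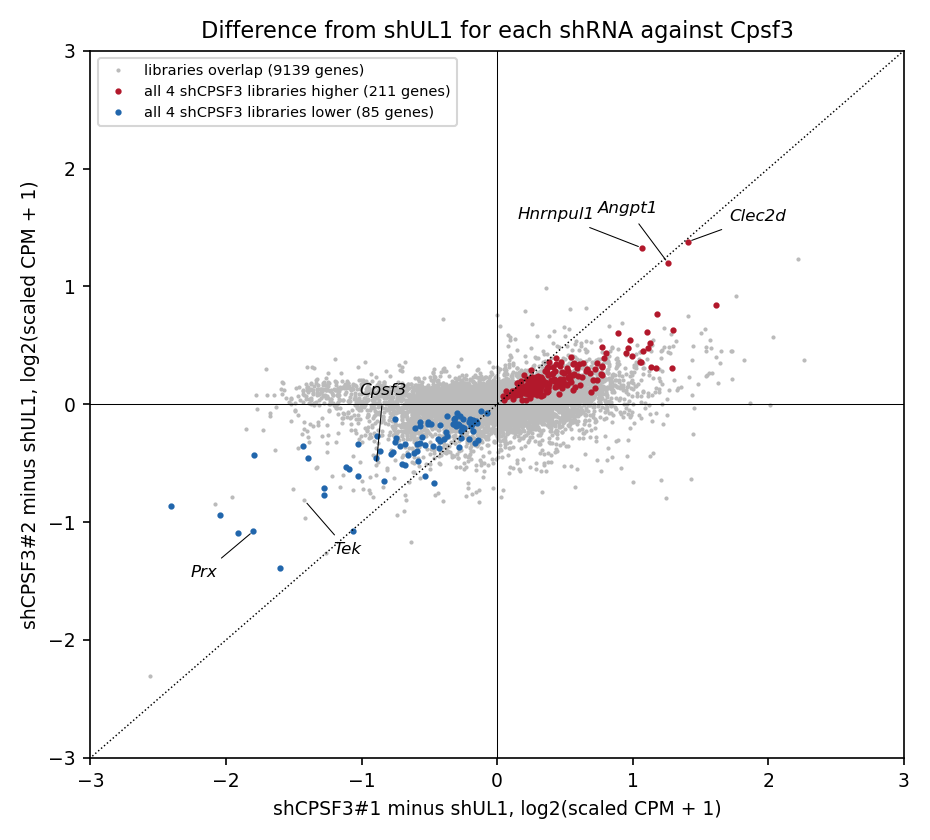
Difference from the mean of the 4 shUL1 libraries in log2(scaled CPM + 1) for shCPSF3#1 (horizontal) and shCPSF3#2 (vertical), 1 point per gene; red and blue points are the 211 and 85 genes whose libraries do not overlap, and the dotted line marks equal differences. Most points spread along the horizontal axis, and *Hnrnpul1*, *Angpt1* and *Clec2d* lie near the dotted line.

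The genes of the following paragraphs are the 6 in each direction with the smallest unadjusted p among the genes without overlap. None passed the adjustment over all genes, so they describe these libraries. Beside *Hnrnpul1*, the higher genes were led by *Angpt1* (ENSMUSG00000022309), which encodes angiopoietin 1, a secreted ligand of the TIE2 receptor. It had 109 and 54.7 scaled CPM in shCPSF3#1, 101 and 53.4 in shCPSF3#2, 45.4 and 26.1 in shUL1#1, and 33.6 and 24.9 in shUL1#2 (replicates 1 and 2). The shCPSF3 libraries were higher in each replicate by a similar margin for both shRNAs, with log2 differences from shUL1 of 1.26 for shCPSF3#1 and 1.20 for shCPSF3#2 (1.23 with both, standard error 0.12). Its level was 29.9 and 8.29 in the shSCR libraries, below both shUL1 libraries of the same number. *Tek*, the gene of the TIE2 receptor and the only one of 5 endothelial markers listed in the table, went the other way: 41.5 and 18.3 scaled CPM in shCPSF3#1, 63.9 and 28.5 in shCPSF3#2, 65.7 and 41.9 in shUL1#1, and 143 and 83.8 in shUL1#2. Its groups overlapped across replicate numbers but not within either (log2 difference −1.12, standard error 0.33, unadjusted p = 0.00948, *limma* adjusted p = 0.442).

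*Fndc3a*, a gene for a membrane protein with fibronectin type III domains, had 217 and 231 scaled CPM in shCPSF3#1, 191 and 177 in shCPSF3#2, 114 and 118 in shUL1#1, and 120 and 130 in shUL1#2. Its 4 shCPSF3 libraries were all above the 4 shUL1 libraries (log2 difference 0.75, standard error 0.11, *limma* adjusted p = 0.231). *Clec2d*, which encodes a C-type lectin-like ligand of natural killer receptors, had 70.04, 47.0, 78.9 and 40.0 scaled CPM in the shCPSF3 libraries and 32.0, 26.7, 15.3 and 14.7 in the shUL1 libraries (in the order #1 replicates 1 and 2, #2 replicates 1 and 2, kept from here on). The log2 difference was 1.39 (standard error 0.27, adjusted p = 0.442), nearly the same with either shRNA against *Cpsf3*. *Tbkbp1*, an adaptor gene of the kinase TBK1, ranged from 30.2 to 38.5 in shCPSF3 and from 23.7 to 25.9 in shUL1 libraries (log2 difference 0.47). *Lrp8*, a receptor gene of the LDL receptor family, ranged from 15.6 to 17.6 against 12.0 to 13.8 (log2 difference 0.34). The shUL1 levels of *Fndc3a*, *Clec2d* and *Lrp8* were below both shSCR libraries in all 4 libraries, with 251 and 148, 58.0 and 32.7, and 19.8 and 19.3 scaled CPM in shSCR.

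In the opposite direction, *Prx*, which encodes periaxin, a scaffold protein best known from Schwann cells, had 51.6, 39.8, 87.9 and 64.5 scaled CPM in shCPSF3 and 175, 112, 210 and 159 in shUL1 libraries. Its mean was 60.9 ± 20.6 against 164 ± 40.5 (SD, n = 4), with a log2 difference of −1.44 (standard error 0.22, *limma* adjusted p = 0.298). *Shisa2*, a gene for an endoplasmic reticulum protein that restrains WNT and FGF receptors, had 12.9, 5.08, 13.9 and 11.3 against 29.8, 18.3, 25.4 and 14.6 (log2 difference −0.99). *Crip1*, a LIM domain gene, had 8.94, 12.4, 15.8 and 16.8 against 21.9, 24.4, 22.0 and 28.1 (log2 difference −0.82). The shCPSF3#1 libraries were the lowest for *Crip1*, and those of shCPSF3#2 lay between them and the shUL1 libraries. *Dock9*, a guanine nucleotide exchange factor gene for CDC42, had 39.3, 35.1, 52.9 and 47.3 against 73.5, 62.0, 84.9 and 89.0 (log2 difference −0.82), with shSCR at 88.0 and 78.8, in the range of shUL1. *Dennd2a*, an activator gene of a RAB GTPase, ranged from 26.3 to 31.5 in shCPSF3 and from 36.9 to 45.2 in shUL1 libraries. *Apmap*, an adipocyte membrane protein gene, ranged from 19.6 to 21.7 against 24.4 to 29.8. The adjusted p of *Shisa2*, *Crip1*, *Dock9*, *Dennd2a* and *Apmap* was 0.442 each, and between 0.0135 and 0.0281 with each shRNA as its own group.

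**Figure D3:**
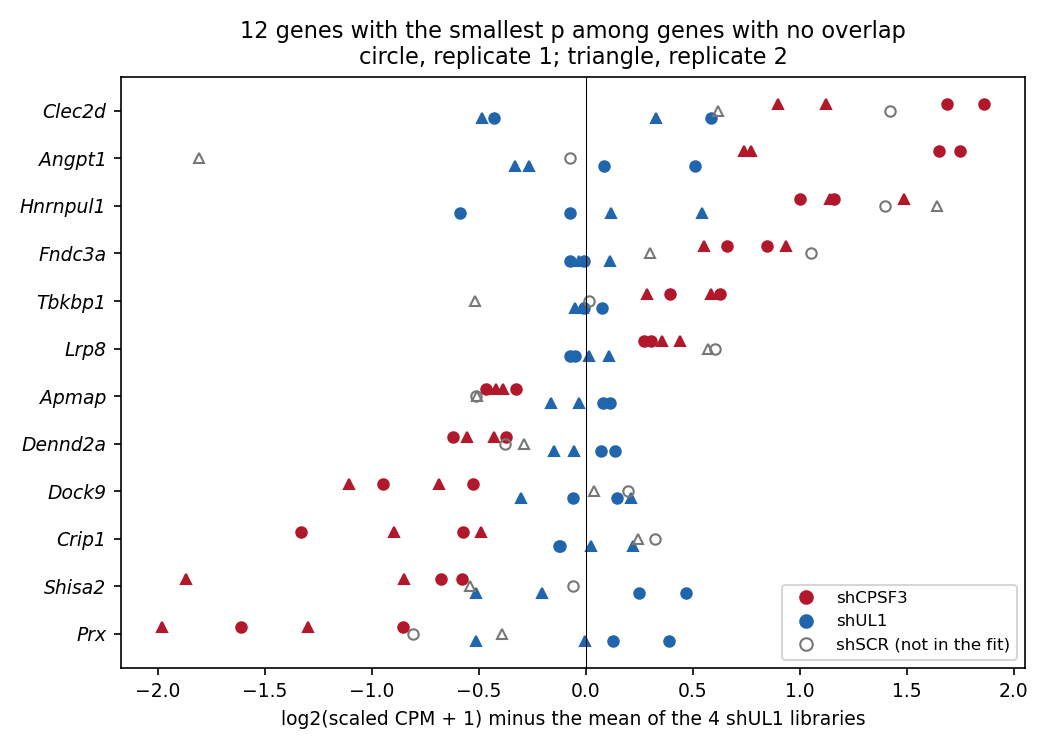
Level of 12 genes in each library on the log2(scaled CPM + 1) scale, relative to the mean of the 4 shUL1 libraries, with shCPSF3 in red, shUL1 in blue and shSCR, which was not tested, as open grey symbols; circles are replicate 1 and triangles replicate 2. Red and blue symbols do not overlap in any of the 12 genes, by the way they were chosen, and shSCR lies nearer to shCPSF3 for *Hnrnpul1* and *Apmap* and nearer to shUL1 for *Dock9* and *Crip1*.

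Of the genes without overlap, 4 were at least 2-fold higher and 8 at least 2-fold lower in shCPSF3 cells. They were looked up after their values were seen. The fourth higher gene, beside *Hnrnpul1*, *Angpt1* and *Clec2d*, was *Stc1*, which encodes the secreted hormone stanniocalcin 1. It had 73.6, 64.9, 39.1 and 41.5 scaled CPM in shCPSF3 and 21.7, 29.3, 14.1 and 25.6 in shUL1 libraries (log2 difference 1.23, standard error 0.27). In shSCR it was at 655 in replicate 1 and 15.3 in replicate 2, so that its level varied far more between the control libraries than between the knockdowns. Beside *Prx*, the lower genes included *Igf2*, an imprinted gene for a fetal growth factor, and *H19*, an imprinted non-coding RNA gene beside it. *Igf2* had 130, 763, 495 and 625 scaled CPM in shCPSF3 and 846, 1139, 1476 and 1397 in shUL1 libraries (log2 difference −1.50, standard error 0.45). *H19* had 156, 952, 1014 and 1238 against 1429, 1796, 2723 and 2491 (log2 difference −1.63, standard error 0.59). Replicate 1 of shCPSF3#1 stood far below the other shCPSF3 libraries in both genes. *Cdkn1c*, an imprinted gene for a cyclin-dependent kinase inhibitor, had 17.6, 34.5, 66.4 and 44.4 against 87.4, 76.6, 147 and 122 (log2 difference −1.49, standard error 0.40). *Slc38a4*, an imprinted amino acid transporter gene, had 29.0, 33.7, 81.9 and 82.5 against 105, 99.1, 133 and 110 (log2 difference −1.11, standard error 0.36). shUL1#2 was the higher of the shUL1 shRNAs in both replicates of these 4 genes.

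The remaining lower genes were *Ptgis*, *Prss35* and *Akr1c14*. *Ptgis*, the gene of prostacyclin synthase, had 10.4, 10.7, 11.8 and 13.0 scaled CPM in shCPSF3 and 20.01, 17.96, 73.8 and 49.8 in shUL1 libraries (log2 difference −1.49). *Akr1c14*, an aldo-keto reductase gene, had 14.9, 14.4, 14.4 and 14.6 against 19.8, 19.3, 38.8 and 66.7 (log2 difference −1.07). *Prss35* ranged from 12.4 to 21.4 against 23.3 to 50.7 (log2 difference −1.02). For *Ptgis* and *Akr1c14* the separation was small against shUL1#1 and large against shUL1#2. The *limma* adjusted p was 0.442 for each of these genes other than *Prx*, *Hnrnpul1* and *Angpt1*.

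Lists of genes for pathways and cell types were then described by their counts and medians, beside the median log2 difference of 0.010 over all genes. No gene of any list passed at an adjusted p under 0.05, and counts at an unadjusted p under 0.05 are to be read against the 7.05% higher and 4.18% lower among all genes. Among the lists with at least 10 measured genes, the widest median was that of 35 mitosis genes (36 in the list), with −0.55 for both shRNAs together and all 35 differences negative. Their median was −1.25 for shCPSF3#1 against shUL1 but 0.13 for shCPSF3#2 against shUL1. *Kif23*, a kinesin gene of the cleavage furrow, had 19.7, 34.3, 49.8 and 124 scaled CPM in shCPSF3 and 45.3, 111, 61.9 and 108 in shUL1 libraries. *Ect2*, which activates RhoA at cytokinesis, had 17.2, 40.5, 51.3 and 134 against 49.4, 121, 59.98 and 113. *Cdc25b*, a phosphatase gene that starts mitosis, was the only member at an unadjusted p under 0.05, with 7.12, 15.6, 11.1 and 23.0 against 13.9, 22.9, 17.4 and 23.6, and *Nuf2*, of the kinetochore, ranged from 6.38 to 35.0 against 15.9 to 32.5. In each of these genes shCPSF3#1 had the lowest library of either replicate number, and shCPSF3#2 was not below shUL1 in replicate 2 except for *Cdc25b*, where the values were near each other.

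The 36 measured DNA replication genes had a median of −0.50, with −1.03 for shCPSF3#1 and 0.042 for shCPSF3#2. *Mcm6*, a subunit of the replicative helicase, had 31.7, 68.3, 76.3 and 216 scaled CPM in shCPSF3 against 84.2, 198, 101 and 185 in shUL1 libraries. *Rfc4*, of the clamp loader, ranged from 6.55 to 29.9 against 12.6 to 31.3, and *Rrm1*, the large subunit of ribonucleotide reductase, from 133 to 193 against 180 to 238. *E2f1*, a transcription factor gene of the G1/S transition, was the single member with a positive difference (0.27, standard error 0.07, unadjusted p = 0.00589), with 30.3, 37.8, 30.7 and 35.3 against 25.6, 29.5, 24.4 and 31.0. It was higher with both shRNAs against *Cpsf3* within each replicate number. Genes of DNA double-strand break repair shared the pattern of the replication genes, with 25 of 26 negative, a median of −0.30, −0.68 for shCPSF3#1 and 0.077 for shCPSF3#2. Among them, *Fancd2* had 6.26, 13.0, 14.3 and 47.3 against 14.2, 43.7, 19.3 and 45.1, and *Chek1*, the gene of a checkpoint kinase, ranged from 8.17 to 46.8 against 16.5 to 43.2. *Xrcc6*, which encodes the end-binding protein Ku70, ranged from 29.1 to 59.7 against 42.7 to 55.7. *Lig4*, the ligase gene of end joining, was the exception, with 18.1, 17.2, 16.2 and 15.9 against 12.2, 14.7, 12.0 and 14.7 and no overlap (log2 difference 0.31, unadjusted p = 0.0107). With each shRNA as its own group, 33 mitosis, 25 replication and 10 repair genes were lower at an adjusted p under 0.05, against 6.06% of all genes in that fit.

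Of 26 measured targets of p53, 20 were positive and 6 negative, with a median of 0.19, 0.42 for shCPSF3#1 and 0.022 for shCPSF3#2, and 3 were higher at an unadjusted p under 0.05. With each shRNA as its own group, 7 were higher at an adjusted p under 0.05, against 7.79% of all genes. Those at an unadjusted p under 0.05 were *Dda1*, *Zmat3* and *Aen*. *Zmat3*, an RNA-binding protein gene, had 312, 286, 260 and 230 scaled CPM in shCPSF3 and 240, 222, 212 and 207 in shUL1 libraries. *Aen*, an apoptosis-enhancing nuclease gene, had 166, 149, 117 and 115 against 104, 99.1, 115 and 110, without overlap but within 0.2 scaled CPM at the nearest pair of libraries. *Dda1* ranged from 56.8 to 84.3 against 48.3 to 58.3, and *Tnfrsf10b*, a death receptor gene, from 90.2 to 161 against 77.6 to 118. The only replication-dependent histone genes in the table were *Hist1h1c* and *Hist1h2bc*, and both were higher at an unadjusted p under 0.05. *Hist1h1c*, of linker histone H1, had 228, 164, 217 and 97.3 against 160, 76.3, 128 and 89.7. *Hist1h2bc*, of histone H2B, had 141, 117, 106 and 60.2 against 56.6, 34.8, 84.7 and 67.7. Histone mRNAs without a poly(A) tail would be missed by these poly(A)-selected libraries.

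Few RNA-processing genes had an unadjusted p under 0.05 beside the targets themselves, although most of their differences were negative. Of 23 measured genes of the cleavage and polyadenylation machinery, *Cpsf3* alone had an unadjusted p under 0.05, and 19 were negative, with a median of −0.084 (−0.23 for shCPSF3#1, 0.062 for shCPSF3#2). *Cstf2*, of the cleavage stimulation factor, ranged from 32.6 to 62.3 scaled CPM in shCPSF3 and from 38.3 to 60.1 in shUL1 libraries, *Cpsf4* from 18.6 to 43.5 against 23.0 to 38.4, and the scaffold gene *Sympk* from 140 to 160 against 129 to 144. Of 14 Integrator genes, whose complex holds the cleavage enzyme of small nuclear RNAs, 0 had an unadjusted p under 0.05 (median −0.066). The smallest was that of *Ints7*, with 32.7, 36.8, 39.3 and 68.5 against 52.2, 64.6, 48.8 and 63.7. *Ints2*, *Ints6* and *Ints8* had log2 differences of −0.15, −0.16 and 0.078. Of 10 histone pre-mRNA processing factors, 0 had an unadjusted p under 0.05 (median −0.018), and *Slbp*, the stem-loop binding protein, ranged from 31.8 to 67.6 against 43.8 to 64.3. *Npat*, *Casp8ap2* and *Lsm10* had log2 differences of −0.17, −0.26 and 0.11.

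The 26 hnRNP genes had a median of −0.19, −0.38 for shCPSF3#1 and −0.0044 for shCPSF3#2, and *Hnrnpul1* was the single positive one. *Ptbp3*, a paralog of the splicing repressor PTB, was the other member at an unadjusted p under 0.05, with 132, 97.7, 173 and 119 scaled CPM against 182, 136, 172 and 130. *Hnrnpr* ranged from 93.8 to 123 against 119 to 131, and *Hnrnpdl* from 178 to 346 against 237 to 347. All 12 measured SR protein genes, general splicing activators, had negative differences, with a median of −0.20 and 0 at an unadjusted p under 0.05. *Srsf1* had 200, 254, 245 and 452 against 286, 449, 279 and 372, and *Srsf3* had 198, 259, 259 and 476 against 277, 463, 298 and 390. Within each replicate number the shCPSF3#1 library was the lowest, and shCPSF3#2 was not below the shUL1 libraries in replicate 2. *Srsf2* and *Srsf10* showed the same order, from 73.8 to 205 against 116 to 197 and from 136 to 233 against 165 to 232.

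Of 36 measured genes of type I collagen and matrix, 34 had positive differences, with a median of 0.32 (0.51 for shCPSF3#1, 0.11 for shCPSF3#2) that was 0.18 after quantile normalization. Only 2 were higher at an unadjusted p under 0.05, against 7.05% of all genes. *Tnc*, the gene of tenascin C, had 1948, 854, 1277 and 315 scaled CPM in shCPSF3 and 582, 195, 719 and 430 in shUL1 libraries, and *Thbs1*, of thrombospondin 1, ranged from 5071 to 12750 against 4075 to 7839. *Lum*, of the collagen-binding proteoglycan lumican, ranged from 444 to 965 against 351 to 811, and *Loxl3*, a collagen crosslinking enzyme gene, from 236 to 332 against 188 to 251. The 20 contractile genes had a median of 0.087, with 0.315 for shCPSF3#1 and −0.118 for shCPSF3#2. Among them, *Myh9*, of non-muscle myosin, had 888, 890, 888 and 663 against 842, 620, 439 and 442, and *Synpo2* ranged from 8.65 to 17.1 against 6.71 to 12.5. *Mylk*, of myosin light chain kinase, pointed the other way, with 31.6, 62.5, 69.3 and 41.7 against 89.6, 55.7, 157 and 80.2, whereas *Cald1*, of caldesmon, ranged from 769 to 1668 against 728 to 1135. The TGF-beta and YAP targets had a median of 0.042 that turned to −0.022 with equal sums and −0.023 with *limma-voom*. *Tgfb1* itself had 44.2, 33.9, 25.8 and 19.4 against 19.9, 17.4, 23.99 and 18.9. *Ltbp1* ranged from 175 to 321 against 115 to 198, and *Nuak2* from 13.4 to 19.8 against 16.5 to 23.6. Of 14 mesenchymal transcription factor genes, *Snai2* alone had an unadjusted p under 0.05, with 31.9, 59.8, 26.9 and 36.9 against 27.1, 31.8, 23.2 and 30.2. *Zeb1* ranged from 81.9 to 142 against 75.8 to 87.1, and *Foxc1* from 25.5 to 30.8 against 20.9 to 30.1.

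Cholesterol synthesis held the largest share of members at an unadjusted p under 0.05 among the lists with at least 10 measured genes, with 5 of 22 higher and 0 lower, although the list median was only 0.0067 and turned to −0.057 with equal sums. *Tm7sf2*, a sterol reductase gene, had 19.96, 15.9, 19.1 and 15.2 scaled CPM in shCPSF3 and 16.0, 12.6, 14.2 and 12.6 in shUL1 libraries (log2 difference 0.32, standard error 0.08, unadjusted p = 0.00330). *Nsdhl*, of sterol C4 demethylation, had 55.8, 37.2, 53.3 and 36.8 against 42.0, 32.8, 41.1 and 30.4 (log2 difference 0.30, standard error 0.08). *Hsd17b7* and *Sc5d*, later enzymes of the pathway, ranged from 45.1 to 106 against 35.6 to 67.9 and from 61.0 to 146 against 55.2 to 115. *Tm7sf2* and *Nsdhl* were higher in both shCPSF3 libraries within each replicate number. In glycolysis and the hypoxia response 0 of 32 genes had an unadjusted p under 0.05 (median −0.15), *Aldoc* having 5.17, 5.26, 15.2 and 22.2 against 34.7, 25.8, 13.2 and 17.6, *Pfkp* ranging from 56.6 to 303 against 111 to 278, *P4ha2* from 45.2 to 305 against 33.9 to 119, and *Pfkm* from 72.4 to 79.2 against 63.4 to 73.5. *Herpud1* was the only member of 24 of the amino acid and unfolded protein response at an unadjusted p under 0.05, ranging from 34.2 to 61.3 against 30.5 to 44.7. *Slc7a11*, a cystine transporter gene, had 149 in replicate 1 of shCPSF3#1 and 17.96 to 35.4 in the other shCPSF3 libraries, against 13.8 to 33.7 in shUL1, while *Calr* and *Pdia4* had log2 differences of 0.30 and 0.18. In the interferon response 0 of 20 genes had an unadjusted p under 0.05, and the shRNAs against *Cpsf3* lay on opposite sides of shUL1, with medians of 0.61 and −0.42. *Ddx58*, the RIG-I gene, had 210, 104, 91.1 and 90.6 against 97.7, 84.7, 123 and 82.8. *Ifi204*, *Stat2* and *Bst2* had log2 differences of 0.31, 0.17 and 0.22.

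**Figure D4:**
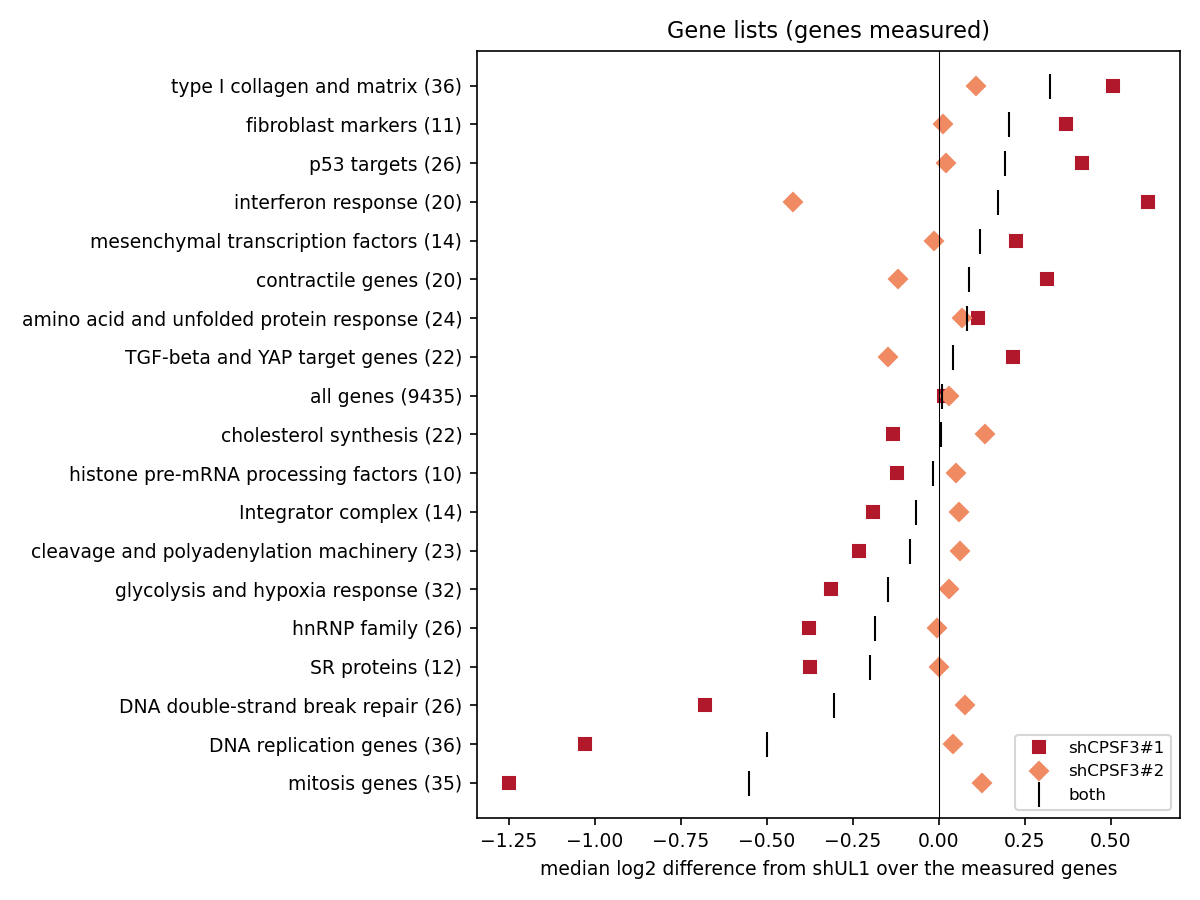
Median log2 difference from shUL1 over the measured genes of each list with at least 5 genes measured, for shCPSF3#1 (red squares), shCPSF3#2 (orange diamonds) and both (black bars), with the number of genes in brackets. Mitosis genes reach −1.25 with shCPSF3#1 and 0.13 with shCPSF3#2, and the medians of shCPSF3#2 lie near 0 for most lists, the interferon response at −0.42 being the farthest.

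Markers of cell types were looked at in the same way, and none passed at an adjusted p under 0.05. Of 12 fibroblast markers 11 were listed, as the labelled cell type calls for, and their summed level was 23300 to 39000 scaled CPM in shCPSF3 and 22400 to 38900 in shUL1 libraries. *Thy1* was the member with an unadjusted p under 0.05, with 548, 585, 552 and 364 against 444, 332, 302 and 333, and *Col1a1* and *Vim* had log2 differences of 0.46 and 0.21. *Prrx1* ranged from 364 to 1093 against 357 to 604. Of 12 epithelial markers only *Krt8*, *Krt18* and *Krt19* were listed, summing to 46.2 to 247 against 85.7 to 276, and 0 of 12 pluripotency markers were listed. *Krt19* had 14.5, 14.5, 41.3 and 16.2 against 55.4, 20.2, 52.9 and 34.6 (unadjusted p = 0.0176), and shSCR had 88.5 and 67.1. Of 7 macrophage markers 3 were listed, *Lyz2*, *Cd68* and *Csf1r*, and their sum ranged from 429 to 1810 in shCPSF3 and from 259 to 1000 in shUL1 libraries. Their median log2 difference was 0.97, *Lyz2* and *Cd68* had an unadjusted p under 0.05, and all 3 had an adjusted p between 0.028 and 0.035 with each shRNA as its own group. *Lyz2* had 1676, 1207, 1187 and 374 against 482, 226, 923 and 514, *Cd68* had 59.4, 80.8, 56.9 and 36.0 against 24.9, 21.6, 43.1 and 38.5, and *Csf1r* had 78.4, 83.8, 39.0 and 19.4 against 25.5, 11.9, 34.5 and 29.3. The macrophage genes *Adgre1*, *Ptprc*, *Tyrobp* and *Fcer1g* were not among the listed genes. Single markers were listed for trophoblast and extraembryonic endoderm (*Gata2*, log2 difference 0.21) and muscle (*Des*, −0.50). The part of these markers in the gene differences above was not tested.

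Splicing was compared over 402988 of 661941 annotated events, those with at least 10 reads (a coverage score of VLOW or better) in each of the 8 libraries. By the rule of a mean PSI difference of at least 10 with at least 5 PSI between the nearest libraries of the knockdowns, 27 events of 22 genes separated them, 13 with higher inclusion (0.00323%) and 14 with lower inclusion (0.00347%) in shCPSF3 cells. They were 14 cassette exons, 5 alternative 3′ splice sites, 5 alternative 5′ splice sites and 3 retained introns. Without the demand on the nearest libraries, 615 events passed. The rule holds no test. In the test on inclusion and exclusion reads, 0 of 402988 events had a *limma* adjusted p under 0.05, the lowest being 0.458, while 12370 higher (3.07%) and 17187 lower (4.26%) had an unadjusted p under 0.05. All 27 events were among these, with adjusted p from 0.465 to 0.648. As the rule asks for separated libraries and the test uses the same libraries, this adds no separate support. Depth limits these events, since 14 of the 27 had fewer than 50 reads in at least 1 library and the lowest had 15. Just inside the rule, the smallest distance between libraries was 5.12, and just outside it an exon of *Eaf2* had 4.92 with a difference of 17.3. In PSI, shCPSF3#2 was at 2.80 and 2.82 (median absolute difference over 17823 events with a mean PSI from 10 to 90) from the shUL1 shRNAs, which were 2.95 from each other. The shRNA shCPSF3#1 was at 3.36 and 3.30 from the shUL1 shRNAs and at 3.03 from shCPSF3#2. The order was that seen in expression, but these distances differed far less from each other.

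Of the 14 cassette exons of the rule, 3, not all in the same direction, were at most 27 nt long (21.4%), against 3.50% of the 3970 tested exons with a mean PSI from 10 to 90 and 1.87% of all tested exons, and 7 of 14 had a length divisible by 3, against 48.5% and 39.6%. A few of these exons, chosen for their annotated sequence and to show a short exon beside longer ones, are shown as spliced mRNA from GENCODE vM21, 5′ to 3′, with the alternative exon in capitals and 30 nt of the neighbouring exons in lower case.
Senp6, chr9:80098886-80098906, plus strand: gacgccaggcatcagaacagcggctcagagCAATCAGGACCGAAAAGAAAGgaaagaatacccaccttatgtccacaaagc
Fsd1l, chr4:53655741-53655763, plus strand: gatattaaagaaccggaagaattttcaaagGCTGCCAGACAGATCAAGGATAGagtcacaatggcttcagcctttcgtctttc
Klhdc10, chr6:30427709-30427795, plus strand: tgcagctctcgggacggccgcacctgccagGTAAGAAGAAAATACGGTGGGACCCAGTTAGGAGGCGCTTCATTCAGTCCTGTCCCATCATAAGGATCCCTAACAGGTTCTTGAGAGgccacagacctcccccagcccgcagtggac
Nrg1, chr8:31838261-31838328, minus strand: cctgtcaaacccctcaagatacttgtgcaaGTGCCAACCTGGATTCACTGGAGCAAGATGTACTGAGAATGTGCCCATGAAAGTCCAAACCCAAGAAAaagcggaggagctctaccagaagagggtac
The 21-nt exon of *Senp6* (MmuEX0041673, coding, in 4 of 15 annotated transcripts) and the 87-nt exon of *Klhdc10* have lengths divisible by 3. The 23 nt of *Fsd1l* and the 68 nt of *Nrg1* are not divisible by 3. Whether another exon is used in their place, which could keep the reading frame, was not examined.

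*Senp6*, a protease that removes SUMO chains from proteins, gave the best covered microexon. Its PSI was 69.9 and 76.8 in shCPSF3#1, 72.5 and 67.0 in shCPSF3#2, 52.9 and 50.6 in shUL1#1, and 53.7 and 54.9 in shUL1#2, over 329 to 480 reads per library. All shCPSF3 libraries were at least 12.1 PSI above all shUL1 libraries, with means of 71.5 ± 4.16 and 53 ± 1.82 (SD, n = 4). Both shUL1#2 libraries were slightly above both shUL1#1 libraries. It was at 82.0 and 81.1 in shSCR cells and 41.9 and 40.1 in NI cells, so that inclusion in the shUL1 libraries lay nearest to that of day 0. The log2 ratio of its reads differed by 1.15 (standard error 0.15), with a *limma* adjusted p of 0.547 over all events. Among the 34329 events with a mean PSI from 5 to 95, a restriction chosen after seeing the data that leaves out events with almost no reads on one side, it had an adjusted p of 0.0228 and was 1 of 2 events called (0.00583%). The other was exon MmuEX0021777 of *Gpx8*, a glutathione peroxidase gene of the endoplasmic reticulum (chr13:113045535-113045693, 159 nt, within a coding exon). This exon was read deeply, with 3753 to 7887 reads per library, and its PSI was 91.1, 91.3, 91.1 and 90.9 in shCPSF3 and 85.9, 83.6, 83.8 and 84.3 in shUL1 libraries. The difference of 6.68 PSI is below the minimum of the rule but many times the SD of 0.168 and 1.04 (n = 4 each). Its adjusted p among these events was 0.0228 as well, and 0.458 over all events. Both events were named after their values were seen.

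*Fsd1l* exon MmuEX0019700 (23 nt, coding) had a PSI of 36.8, 41.0, 35.4 and 34.1 in shCPSF3 and 20.7, 17.2, 26.7 and 17.2 in shUL1 libraries over 16 to 28 reads. The third short exon, MmuEX0030172 of *Mtss1l* (chr8:110727829-110727837, 9 nt, outside the annotated exons), lies in a gene of an actin and membrane-bending protein. It went the other way, with 29.2, 29.99, 23.0 and 31.5 in shCPSF3 and 39.8, 39.2, 56.8 and 47.2 in shUL1 libraries over 80 to 150 reads. The shSCR libraries were apart from each other for both, at 24.7 and 52.2 for *Fsd1l* and at 59.3 and 29.1 for *Mtss1l*. *Nrg1* exon MmuEX0032333 (coding), of the ErbB receptor ligand neuregulin 1, had 58.6, 64.4, 58.8 and 60.8 against 42.0, 45.4, 53.5 and 49.2 over 207 to 666 reads. *Klhdc10* exon MmuEX0025714 (coding), of a kelch-domain protein, had 33.7, 35.4, 32.8 and 36.5 against 47.4, 44.1, 44.5 and 46.8 over 104 to 199 reads, and its means of 34.6 ± 1.65 and 45.7 ± 1.66 (SD, n = 4) made it one of the tightest events of the rule.

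The widest PSI differences came from *Ccl25*, which encodes a chemokine, and *Plag1*, which encodes a zinc finger transcription factor. Exon MmuEX1006101 of *Ccl25* (chr8:4333123-4333230, 108 nt) had a PSI of 13.0, 10.2, 10.3 and 22.7 in shCPSF3 and 30.2, 48.8, 32.5 and 48.0 in shUL1 libraries, a difference of −25.8, over 27 to 91 reads. Another exon of *Ccl25* can end at either of a pair of 5′ splice sites, 43 nt apart. It is printed below as spliced sequence with those 43 nt in capitals.
Ccl25, chr8:4327757-4327893, plus strand: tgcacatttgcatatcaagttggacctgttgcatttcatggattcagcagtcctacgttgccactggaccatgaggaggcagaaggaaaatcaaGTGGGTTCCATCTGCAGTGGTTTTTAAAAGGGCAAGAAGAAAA
The long form (MmuALTD0002742-2/2, coding) was used at 32.7, 23.6, 31.8 and 25.0 PSI in shCPSF3 and 50.3, 55.0, 56.9 and 45.4 in shUL1 libraries over 21 to 69 reads, and at 64.4 and 60.8 in shSCR. The short form is its complement, so that it adds no second observation. *Plag1* exon MmuEX0035543 (chr4:3912420-3912511, 92 nt, outside the coding sequence) had 55.6, 54.9, 61.2 and 54.8 against 31.0, 21.4, 45.4 and 31.0 over 34 to 57 reads, and 49.0 and 38.2 in shSCR.

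Of the remaining 7 exons of the rule, 4 had higher and 3 lower inclusion in shCPSF3 cells. *Rreb1* exon MmuEX0040576 (chr13:37941543-37941704, coding), of a zinc finger transcription factor of RAS signalling, had a PSI of 57.6, 63.6, 56.5 and 55.7 in shCPSF3 and 45.0, 49.0, 47.6 and 48.3 in shUL1 libraries over 122 to 216 reads. *Inca1* exon MmuEX0024127 (chr11:70690183-70690222, coding), of an inhibitor of cyclin A and CDK2, was at 100 in each shCPSF3 library and at 91.6, 87.8, 84.1 and 90.8 in shUL1 libraries, with 21 to 55 reads. *Ccdc82* exon MmuEX7005946 (chr9:13249259-13249342, outside the coding sequence) had 29.7, 21.3, 29.9 and 35.6 against 12.6, 14.8, 16.0 and 15.04, with shSCR at 11.8 and 8.09. *Zbtb38* exon MmuEX1028214 (chr9:96748470-96748604, outside the coding sequence), of a protein that binds methylated DNA, had 13.2, 8.05, 16.7 and 13.0 against 31.2, 30, 22.7 and 21.9. *Klhdc8b* exon MmuEX0025733 (chr9:108459225-108459309, outside the coding sequence) had 44.4, 49.4, 54.5 and 51.2 against 63.2, 72.3, 60.2 and 63.9, with shSCR at 44.5 and 46.3, in the range of shCPSF3. *Phf21a* exon MmuEX0034759 (chr2:92187053-92187408), of a histone-binding protein, had 59.97, 64.3, 60.3 and 62.5 against 54.8, 49.3, 54.3 and 43.5 over 65 to 129 reads. *Lyrm7* exon MmuEX0027405 (chr11:54853227-54853299, coding), of an assembly factor of mitochondrial complex III, had 90.2, 90.8, 85.9 and 82.4 against 96.97, 100, 96.97 and 97.1 over 58 to 104 reads, so that its shCPSF3 libraries differed from each other by more than from the nearest shUL1 library.

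Among alternative 3′ splice sites, the third site of *Unkl* (MmuALTA1004271-3/3, chr17:25189466-25189636, within a coding exon), a gene of the unkempt family of zinc finger proteins, was used at 84.5, 82.0, 83.2 and 75.8 PSI in shCPSF3 and 62.8, 54.8, 59.7 and 66.6 in shUL1 libraries over 48 to 79 reads. Another 2 events are complementary sites of *Dmxl2*, 3 nt apart. The site MmuALTA0005593-2/4, which adds the 3 nt, was used at 85.6, 76.6, 78.5 and 82.6 against 68.6, 69.5, 71.5 and 69.0 over only 15 to 31 reads. The second 5′ splice site of *Paics* (MmuALTD0009883-2/6), an enzyme gene of purine synthesis, was used at 5.86, 2.85, 10.1 and 11.1 against 20.8, 16.9, 23.4 and 17.7, over 35 to 111 reads. The last pair of 5′ sites belonged to *Rassf2*, a gene of the RAS association domain family, whose site MmuALTD0011599-2/2 adds 59 nt to an exon outside the coding sequence. It was used at 54.1, 62.0, 52.0 and 52.7 against 44.3, 44.9, 43.1 and 44.9 over 54 to 96 reads.

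The 3 introns of the rule were all retained less in shCPSF3 than in shUL1 libraries. In *Pih1d2* (MmuINT0119650, chr9:50618650-50619754) the PSI was 18.2, 19.5, 19.5 and 20.7 against 34.6, 41.6, 33.3 and 50 over 26 to 63 reads. In *Usp42*, a deubiquitinase gene (MmuINT0171887, chr5:143711989-143713535), it was 15.9, 18, 18.2 and 21.8 against 29.3, 35.0, 27 and 33.9. In *Phka2*, of a regulatory subunit of phosphorylase kinase (MmuINT0119033, chrX:160529998-160531107), it was 30.9, 31.5, 29.1 and 34 against 45.4, 47.0, 41.1 and 41.7, and shSCR was above both at 67.5 and 57.7. Among all 17823 events with a mean PSI from 10 to 90, 775 were higher (4.35%) and 1284 lower (7.20%) in shCPSF3 cells at an unadjusted p under 0.05. Among them, 212 introns were higher and 579 lower of 6751, and 211 cassette exons were higher and 359 lower of 3970. For alternative 3′ sites (179 higher and 183 lower of 3898) and 5′ sites (173 and 163 of 3204), the sites of 1 event sum to 100 PSI, so that near-equal numbers are given by construction. The mean PSI of these introns was 20.6, 22.2, 20.5 and 22.7 in shCPSF3 and 22.8, 23.2, 20.6 and 22.3 in shUL1 libraries. It was thus higher than in shCPSF3 for both libraries of shUL1#1, while those of shUL1#2 were in the range of shCPSF3.

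**Figure D5:**
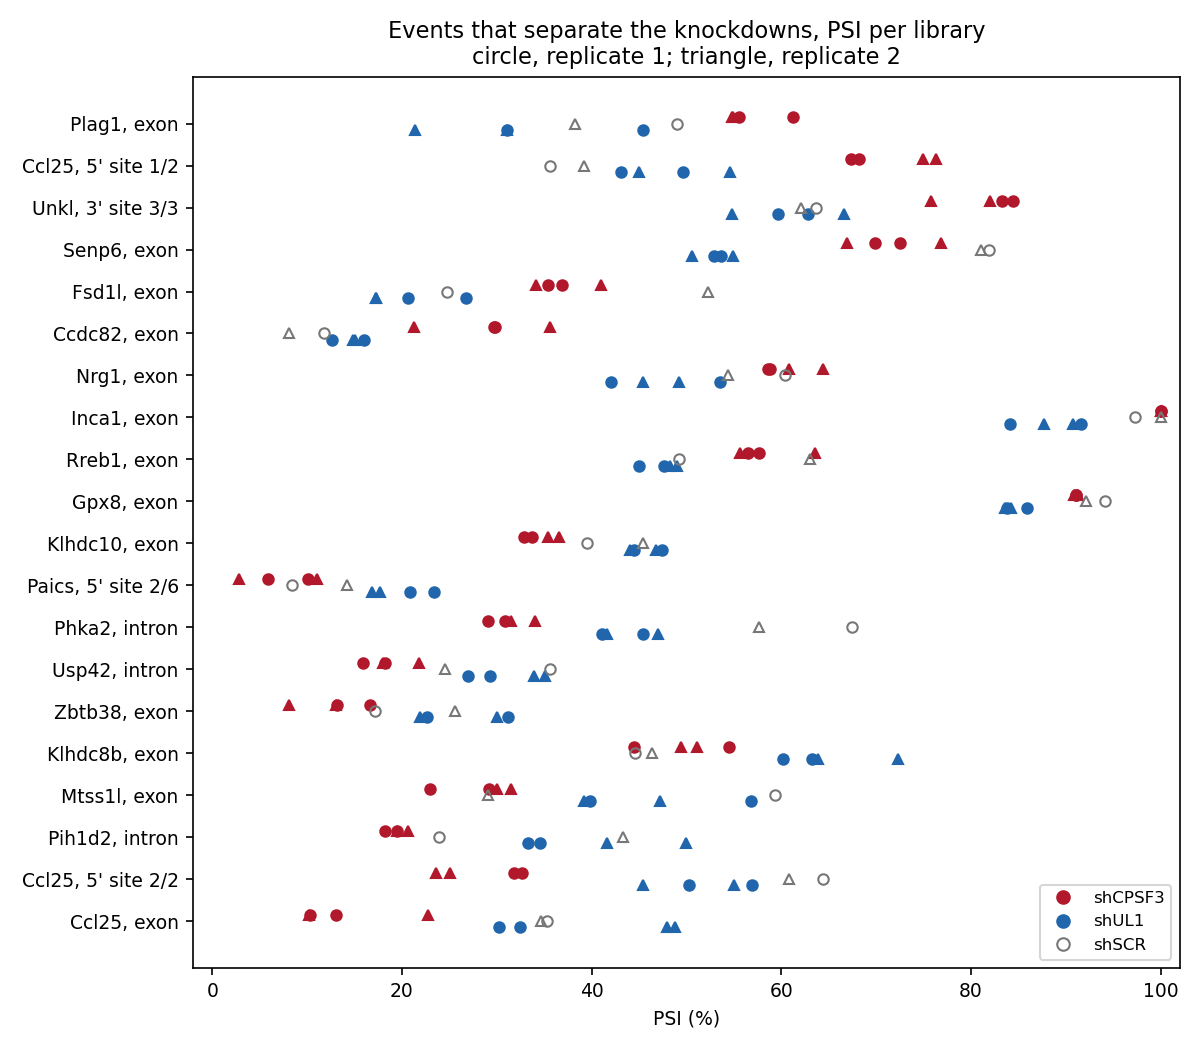
PSI (horizontal, percent) of the events described above in each library, ordered by the difference between the knockdowns, with shCPSF3 in red, shUL1 in blue, shSCR as open grey symbols, circles for replicate 1 and triangles for replicate 2; they are those named by the smallest p within the rule, with *Nrg1*, *Mtss1l* and *Gpx8* added. Red and blue symbols do not overlap in any event, by the way they were chosen, and those of *Gpx8* at 90.9 to 91.3 and 83.6 to 85.9 are among the most compact.

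Relative to the control, shSCR lay between the means of the knockdowns in 14 of the 27 events, beyond shUL1 in 9 and beyond shCPSF3 in 4. It was nearer to shUL1 in 19 and to shCPSF3 in 8. The events of the targeted genes did not separate the knockdowns, as 0 of 68 tested events in *Cpsf3* and 0 of 68 in *Hnrnpul1* met the rule, the largest PSI differences being 2.76 and 6.86. At an unadjusted p under 0.05 there were 36 of the 68 events in *Cpsf3* and 53 of the 68 in *Hnrnpul1*, against 7.33% of all 402988 events. The ratio of an event with almost no exclusion reads follows its number of inclusion reads. How many of the events in these genes are of that kind was not examined. The counts are therefore not read as a change in splicing, and their cause was not tested.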

How the data were processed

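The authors prepared stranded poly(A) libraries, mapped paired reads to mm10 with *STAR* 2.7.1a, derived CPM with *edgeR* 3.16.5 and filtered out low and invariant genes. The deposited gene values are a signal, CPM scaled for each library (scaled CPM). Within each library 100% of the values lay within 0.1 of a whole multiple of one step, taken as 1 read for the depth. PSI values in percent, with coverage scores and reads, were deposited by the authors from *vast-tools*, at VLOW or better here (at least 10 reads, so that low events have a wide counting error).

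Expression was tested with *limma* 3.58.1 (R 4.3.3) on log2(scaled CPM + 1), which understates changes of low genes, with trend, the knockdown and the replicate number as terms, two-sided, and Benjamini-Hochberg adjustment over all genes. The events were tested with robust *limma* on log2((inclusion + 1)/(exclusion + 1)) reads, weighted by the counting variance plus 0.05. Scripts were tested on simulated data. Overlaps, the PSI rule and exact permutation tests used Python 3.11.15 with SciPy 1.17.1. Same-numbered libraries deviated together (r across genes from 0.675 to 0.949, across events from 0.142 to 0.234). Named genes were the targets, the 6 of smallest p in each direction without overlap and a mean of at least 5 scaled CPM (0 genes having passed), and up to 4 of smallest p in each list. Named events were up to 10 exons and 3 of each other kind by smallest p within the PSI rule. The comparison and lists were chosen with earlier results of these data known. Hairpins came from the study's supplement, exon sequences from GENCODE vM21. A gene and a pair of splice sites that the rules named are not reported here.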

Additional observations from a re-analysis of the deposited data

Results flagged for a closer look

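Of 258 groups of 4 libraries looked at for the named genes and events, 11 held a library far from the other 3. This is no more than the about 1 in 20 groups that chance alone gives, so the libraries below are only listed. Replicate 1 of shCPSF3#1 was high among the shCPSF3 libraries for *Ddx58* (210 scaled CPM, the others 90.6 to 104), *Bst2* (240, the others 81.3 to 105) and *Slc7a11* (149, the others 17.96 to 35.4). The keratin genes *Krt8* (117 scaled CPM, the others 18.6 to 23.5), *Krt18* (88.5, the others 13.1 to 20.1) and *Krt19* (41.3, the others 14.5 to 16.2) were high in replicate 1 of shCPSF3#2. Replicate 2 of shCPSF3#2 was high for *Cpsf4* (43.5 scaled CPM, the others 18.6 to 21.3) and low for *Myh9* (663, the others 888 to 890) and *Thy1* (364, the others 548 to 585).

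For *Plag1* exon MmuEX0035543, replicate 1 of shCPSF3#2 had a PSI of 61.2, and the other shCPSF3 libraries had 54.8 to 55.6. For *Lyrm7* exon MmuEX0027405, replicate 2 of shUL1#1 had a PSI of 100, and the other shUL1 libraries had 96.97 to 97.1.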

How the results depend on the processing

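The count of genes at an adjusted p under 0.05 depended on how the shRNAs entered the fit. It was 0 with both shRNAs as replicates, 1307 with each shRNA as its own group, 1702 with all 12 libraries of the table in the fit (shSCR and NI included), and 2993 without shCPSF3#2. Without the replicate block it was 0 for genes (545 at an unadjusted p under 0.05) and 0 for events by reads (26884), so that the pairing changed no call there. Leaving out each library in turn gave from 0 to 0 genes and from 0 to 0 events by reads, with 419 to 3221 genes at an unadjusted p under 0.05, the highest without replicate 2 of shCPSF3#2. Pseudocounts of 0.5 and 5, a mean of at least 10 scaled CPM, quantile normalization, equal sums and *limma-voom* gave 0 genes. The log2 difference of *Cpsf3* was −0.705 with each shRNA as its own group and with all 12 libraries, and −0.891 without shCPSF3#2, and now passed the threshold (adjusted p from 0.00309 to 0.0266). That of *Hnrnpul1* was 1.20, 1.20 and 1.07 under the same settings (adjusted p from 0.00269 to 0.0178). With each library left out, the values ranged from −0.868 to −0.622 for *Cpsf3* and from 1.05 to 1.33 for *Hnrnpul1*, and without the replicate block they were −0.705 and 1.20.

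For events by reads, PSI in percent gave 29 calls, and events with a mean PSI from 5 to 95, a setting chosen after seeing the data, gave 2, or 57 with each shRNA as its own group. None of the events described above was among the 29, their lowest *limma* adjusted p with PSI in percent being 0.206, that of *Gpx8*. The 27 events of the PSI rule became 12 with a difference of at least 15, 615 with no minimum range, 17 with a coverage of LOW or better, and 64 with the replicate block, which asks for separation only within replicate numbers and kept all 27. They became 183, 421, 270 and 244 without shCPSF3#1, shCPSF3#2, shUL1#1 and shUL1#2, and 54 to 134 with each library left out, since fewer libraries are easier to separate; 24 to 27 of the 27 remained with each library left out.

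For genes and events chosen for libraries that do not overlap, leaving libraries out cannot turn the direction. Of the other named genes, the sign turned without shCPSF3#1 for *Cpsf4* (0.026), *Ints6* (0.055), *Casp8ap2* (0.074), *Srsf2* (0.0032), *Srsf3* (0.0072), *Chek1* (0.015), *Ddx58* (−0.075), *Stat2* (−0.090), *Bst2* (−0.098; −0.048 to 0.424 with each library left out, the lowest without replicate 1 of shCPSF3#1), *Prrx1* (−0.025), *Pfkp* (0.045), *Ect2* (0.056), *Kif23* (0.043) and *Krt18* (0.0040), and without shUL1#2 for *Ints8* (−0.012), *Foxc1* (−0.053) and *Des* (0.12). The planned count test on whole reads was not run, as the values were deposited after scaling. The cause of these shifts was not tested.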
